A study of Mus musculus with 6 samples.

Results

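Cdkn1c and 9 of its neighbours in the imprinted domain around the long noncoding RNA Kcnq1ot1, on distal mouse chromosome 7, were examined in fibroblasts. The 10 genes are Cdkn1c, Kcnq1, Kcnq1ot1, Phlda2, Slc22a18, Nap1l4, Osbpl5, Cd81, Ascl2 and Tspan32, out of 25039 genes in the deposited table. They were chosen by name, Cdkn1c because it served the study as an example and the others for their place in the domain, and each was represented by its RefSeq transcript with the highest mean. Between them they have 19 transcripts in the table. Because the highest mean picked the transcript, the levels that follow describe the genes and carry no test.

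Total RNA was measured from primary mouse embryonic fibroblasts (MEFs), connective tissue cells grown from embryos, at a passage below 8 and in DMEM with 10% FBS. There were 3 wild type (WT) libraries and 3 Anp32e null (Anp32e-/-) libraries, the second from cells without the histone chaperone that removes the histone variant H2A.Z from chromatin. The labels name the cell type, passage and genotype and give no embryonic age or strain for either group. Each level below is the authors' mean of the normalized count over all 6 libraries, WT and Anp32e null together, so it compares genes with each other and not the genotypes. Both alleles of a gene are summed in these values, and no difference between the maternal and the paternal copy can be read from them.

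Imprinted genes are expressed mainly from the copy inherited from one parent. In this domain Kcnq1ot1 is transcribed from the paternal chromosome, from a promoter inside Kcnq1 that carries DNA methylation on the maternal chromosome, and the RNA represses neighbouring genes on the chromosome that makes it. Cdkn1c, Kcnq1, Phlda2 and Slc22a18 are known for expression from the maternal copy, while Ascl2, Tspan32, Cd81, Nap1l4 and Osbpl5 are known for imprinting mainly in the placenta.

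The promoters of the domain differ in their sequence. RefSeq promoter windows of build GRCm38.p6 run from 250 bases before to 50 after a listed start. They were held for 7 of the 10 genes, namely Kcnq1ot1, Phlda2, Slc22a18, Osbpl5, Cd81, Ascl2 and Tspan32. For Phlda2, Tspan32 and Slc22a18 the listed start is not the outer end of the gene but lies inside its span. The whole Phlda2 window, at chr7:143502475-143502774, lies within the gene span of chr7:143501545-143503145. Distances below are counted from the listed start. The 250 bases before the start are shown for the noncoding RNA that the domain is named for, for the low-level gene richest in CpG and for the gene with the highest level. They are read 5′ to 3′ on the strand of the gene, and capitals mark GGGCGG, the core of the GC box bound by SP factors, CCAAT, the box bound by NFY, and TATAAA, recognised by the TATA-binding protein, each searched on both strands.
Kcnq1ot1, chr7:143296548-143296797, minus strand: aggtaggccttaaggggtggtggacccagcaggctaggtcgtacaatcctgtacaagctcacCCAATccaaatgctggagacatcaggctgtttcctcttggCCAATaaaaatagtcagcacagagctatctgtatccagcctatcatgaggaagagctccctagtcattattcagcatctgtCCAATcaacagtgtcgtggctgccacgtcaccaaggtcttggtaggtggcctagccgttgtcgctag
Phlda2, chr7:143502525-143502774, minus strand: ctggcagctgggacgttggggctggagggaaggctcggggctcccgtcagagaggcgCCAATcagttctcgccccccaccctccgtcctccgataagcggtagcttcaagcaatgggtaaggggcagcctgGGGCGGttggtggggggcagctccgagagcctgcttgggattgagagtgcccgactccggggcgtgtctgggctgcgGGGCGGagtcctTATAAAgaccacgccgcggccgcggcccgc
Cd81, chr7:143052500-143052749, plus strand: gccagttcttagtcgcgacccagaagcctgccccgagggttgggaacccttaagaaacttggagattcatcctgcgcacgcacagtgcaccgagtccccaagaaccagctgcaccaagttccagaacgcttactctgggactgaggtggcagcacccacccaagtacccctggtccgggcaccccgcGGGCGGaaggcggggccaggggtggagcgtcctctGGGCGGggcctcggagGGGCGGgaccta

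Kcnq1ot1 had 3 CCAAT matches in its window, all on the strand of the gene and beginning 188, 148 and 67 bases before the start, and none of GGGCGG or TATAAA. Of the 32851 promoter windows in the table, 37.4% held CCAAT at least once and 3.37% held it 3 times or more. Ascl2 also had 3 CCAAT matches, 1 on its own strand and 2 on the other, beginning 99, 90 and 67 bases before its start. Phlda2 was the one gene of the 7 whose window held all 3 motifs, with GGGCGG beginning 119 and 42 bases, CCAAT 193 bases and TATAAA 30 bases before the start. Cd81 had 3 GGGCGG matches, beginning 63, 28 and 12 bases before the start, and a TATAAA match after it. With 1 window a gene, the most distal of 3 for Osbpl5, GGGCGG was found in 3, CCAAT in 4 and TATAAA in 2 of 7 windows, beside shares of 35.7%, 37.4% and 13.6% of all windows.

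The number of CpG dinucleotides, the base pair step at which DNA is methylated, spread widely over the 7 windows. Phlda2 held 26 CpGs, Cd81 and Ascl2 held 23 each, the most distal of 3 listed Osbpl5 windows held 16 and Kcnq1ot1 held 9. Tspan32 and Slc22a18 held 2 each and none of the 3 motifs, while the median of all windows was 7. The same CpG number went with unlike levels in 1 pair, since Cd81 and Ascl2 held 23 each and were the highest and nearly the lowest of the 10 in level per length. Apart from Ascl2, the genes with 16 or more CpGs had higher levels per length than those with 9 or fewer. A relation of CpG number to level was not tested. The other Osbpl5 windows held 1 and 21 CpGs, the latter with 3 GGGCGG matches, and the table of means does not say which of the starts was used.

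**Figure D1:**
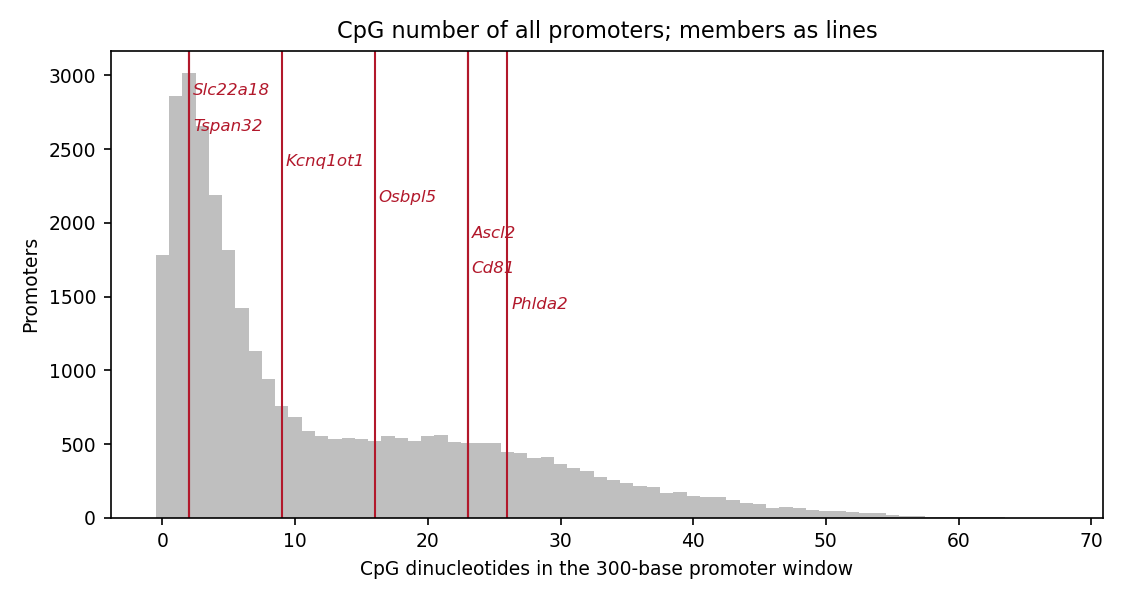
Histogram of the number of CpG dinucleotides (x axis) in 32851 promoter windows of 300 bases, with the number of promoters on the y axis and red lines at the 7 genes of the domain that have a window (for Osbpl5 the most distal one). Slc22a18 and Tspan32 lie at 2, Kcnq1ot1 at 9, Osbpl5 at 16, Cd81 and Ascl2 at 23 and Phlda2 at 26.

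The 10 genes were split into a high and a low set at the median of all genes with reads, a cut that parts those genes evenly. Cdkn1c, which encodes a cyclin-dependent kinase inhibitor of the Cip/Kip family, Cd81, a tetraspanin of the cell surface, Nap1l4, a histone chaperone of the nucleosome assembly protein family, and Osbpl5, an oxysterol-binding protein relative, had means above the median gene of 350.2 normalized counts. The other 6 lay below it, with Kcnq1ot1 at 313.2 the nearest to the cut. The 10 genes stretch over 790.2 kb, and genes of the high and low sets are interspersed along it. All 10 had reads, and 7 had a mean of at least 10, against 14243 of 25039 genes in the table.

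Cdkn1c had a mean of 2181 normalized counts, with a 95% counting interval of 2144 to 2218. This and the other intervals are exact Poisson intervals on the summed reads, cover counting error only and say nothing of the spread between cultures or genotypes. The study names Cdkn1c as an example of activation in Anp32e null cells, alongside changes in accessibility and nucleosome positioning. Its mean pools both genotypes and need not be the level of either. For genes with many reads the sum was estimated from the mean and the size factors. Cdkn1c lies at chr7:143458339-143461059 on the minus strand, in 4 exons with 1.888 kb of spliced sequence in GENCODE on mm10. Its mean stood at percentile 75.9 of the 19271 genes with reads, and its level of 1155 normalized counts per kb at percentile 82.0 of the 17319 genes with a length. Its 3 transcripts gave means between 2180 and 2181, a gap of 0.0474%, so the choice of transcript hardly bears on its value. The annotated antisense RNA Gm44732 covers 30.7% of the exon bases of Cdkn1c. If the counting did not use strand, reads of Gm44732 there cannot be told apart from those of Cdkn1c.

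Among the other inhibitors of the family, Cdkn1a (p21) stood higher, at 8662 normalized counts and 3.92 times the level of Cdkn1c per kb. That ratio depends on the transcript length taken for Cdkn1a. Its 2 transcripts differed by 0.0581% in mean, but per kb the one used gave 4528 and the other 9390. Cdkn1b (p27) had 1958 normalized counts, and Cdkn1c stood 1.41 times above it per kb. For the transcripts used, the counting intervals of the 3 genes per kb did not overlap. Anp32e itself had a mean of 2190 over the WT and null libraries together.

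Cd81 had the highest level of the domain, with a mean of 26400 normalized counts and 17221 per kb. It lies at chr7:143052750-143067930 and reached percentile 98.7 on both scales. Its level per kb was 14.9 times that of Cdkn1c, and without division by length the ratio was 12.1. The antisense gene R74862 shares 3.61% of the exon bases of Cd81. Cd9, another tetraspanin, had 10422 normalized counts, and Cd81 stood 2.03 times above it per kb.

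Nap1l4 followed with a mean of 6780 normalized counts and 2972 per kb, which placed it at percentile 92.4 per kb and 2.57 times above Cdkn1c. Osbpl5, the outermost of the genes on the telomeric side, had 5537 normalized counts and 1467 per kb, and stood 1.27 times above Cdkn1c per kb. The transcripts of each gene differed little, by 0.0871% for Nap1l4 and 0.0205% for Osbpl5. Nap1l1, a relative of Nap1l4 on another chromosome, had a mean of 25213 normalized counts. Osbpl8, an oxysterol-binding protein relative on another chromosome, had 1745 normalized counts, and Osbpl5 stood 3.04 times above it per kb.

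**Figure D2:**
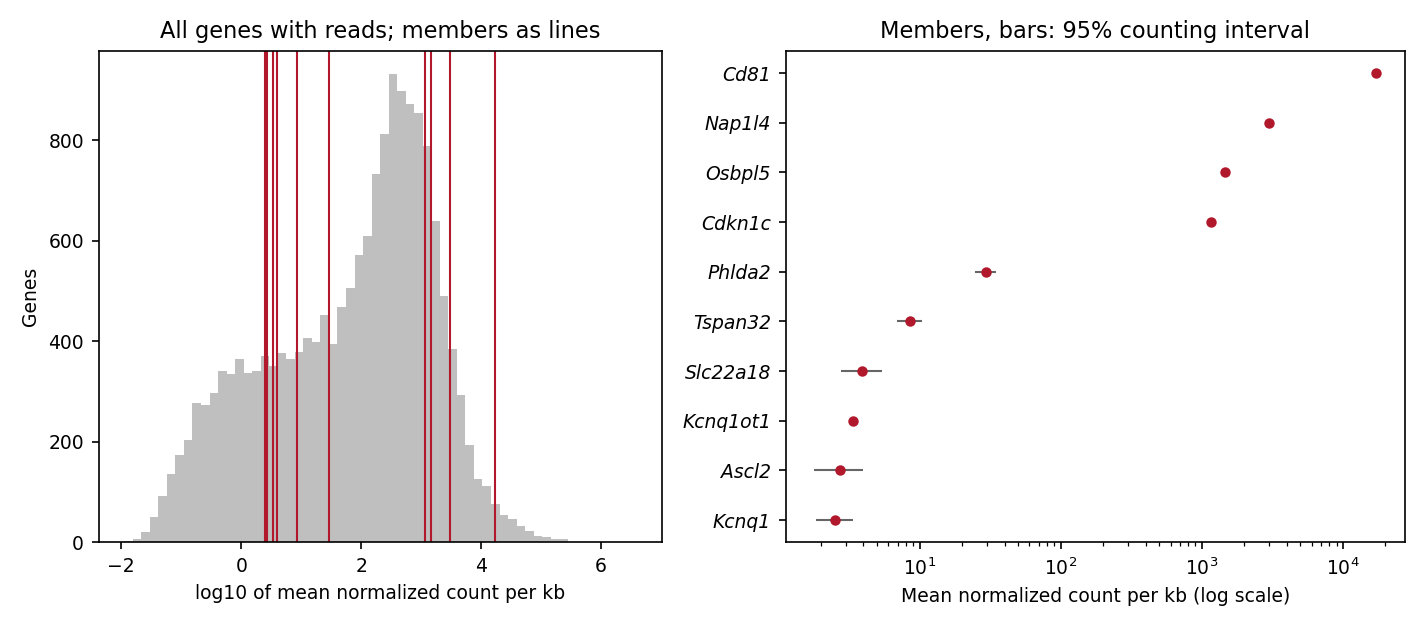
Left, histogram of the log10 mean normalized count per kb (x axis) of 17319 genes with reads and a length (y axis, number of genes), with red lines at the 10 genes of the domain. Right, the mean normalized count per kb of each of the 10 genes on a log scale, with bars for the 95% counting interval, from 2.51 for Kcnq1 to 17221 for Cd81.

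Kcnq1ot1 had a mean of 313.2 normalized counts, at percentile 48.9 of the genes with reads and 30.8 of those with a mean of at least 10. As an unspliced RNA of a single exon it is far longer than the others, 93.1 kb in GENCODE and 83.4 kb in RefSeq, and per kb it stood at 3.36, at percentile 21.8. With the RefSeq span the level per kb was 3.75. Cdkn1c had 6.96 times the mean of Kcnq1ot1 and, with the GENCODE length, 343.3 times its level per kb. The RefSeq span makes that last ratio smaller.

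Kcnq1, the potassium channel gene that hosts Kcnq1ot1 on the opposite strand, had a mean of 7.61 normalized counts and 2.51 per kb, the lowest level per kb of the 10. It lies at chr7:143106877-143427050 on the plus strand with 16 exons, of which 10 lie before Kcnq1ot1, 1 inside it and 5 after it. The exon inside has 121 bases. The libraries were made with a stranded kit, but the study's methods name no strand option for the counting. If strand was not used, reads of Kcnq1 and Kcnq1ot1 over that exon cannot be told apart. The same holds for reads of unspliced Kcnq1 RNA over the rest of Kcnq1ot1, since total RNA was measured. The part of such reads in the level of Kcnq1ot1, and so in its ratios to Kcnq1, was not tested. The mean of Kcnq1ot1 was 41.1 times that of Kcnq1, and per kb, with the GENCODE length of Kcnq1ot1, the ratio was 1.34.

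Per kb the order was Cd81, Nap1l4, Osbpl5, Cdkn1c, Phlda2, Tspan32, Slc22a18, Kcnq1ot1, Ascl2 and Kcnq1. The widest step between neighbours lay below Cdkn1c, which stood 39.0 times above Phlda2. The counting intervals of neighbours did not overlap from Cd81 down to Slc22a18. They did overlap from Slc22a18 to Kcnq1, a stretch from 3.91 to 2.51 normalized counts per kb. With the GENCODE length of Kcnq1ot1 the order of those 4 genes was not separable at this depth. The overlap of Kcnq1ot1 with Kcnq1 depends on that length, since the RefSeq span gave Kcnq1ot1 a level of 3.75.

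**Figure D3:**
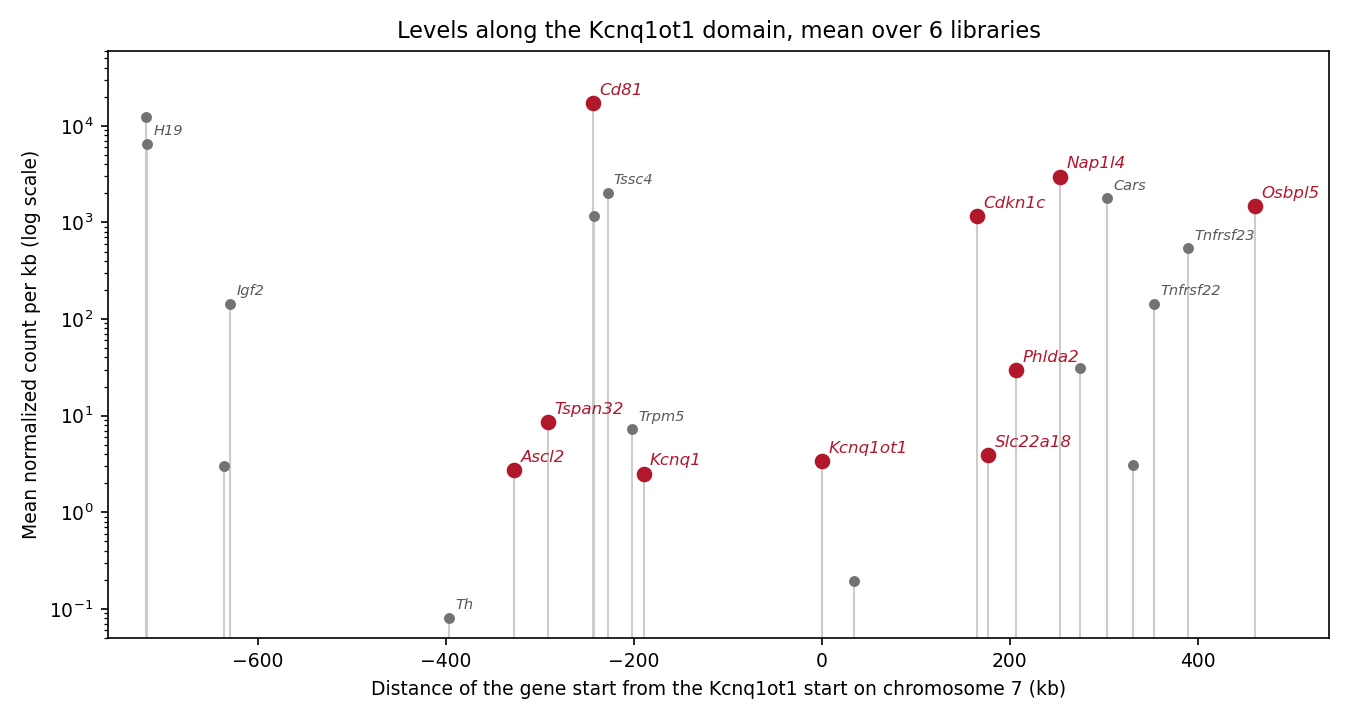
Mean normalized count per kb on a log scale (y axis) against the distance of each gene start from the Kcnq1ot1 start in kb (x axis), with the 10 genes of the domain as red points and the other genes with reads and a length, from H19 to Osbpl5, as gray points. Among the 10 genes Cd81 at 17221 lies between Tspan32 at 8.54 and Kcnq1 at 2.51, and Cdkn1c at 1155 lies next to Slc22a18 at 3.91.

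The genes with few reads could be followed into single libraries. The means are printed with 15 digits, and a mean of whole reads, each divided by the size factor of its library, leaves a number that 1 set of 6 read counts can give. The size factors, which scale libraries to each other for depth, ran from 1.13 in the library named A here to 0.909 in the library named F. The files do not say which library is WT and which is Anp32e null, so the letters stand for libraries in order of size factor and for no genotype, and no groups were formed from them. Exactly 1 set of reads was found for each of Phlda2, Tspan32, Kcnq1, Slc22a18 and Ascl2, and for 2260 of 2260 genes with means from 4 to 25. The other 5 genes had too many reads for such a result. By the density of read sets about 8725 would give the mean of Kcnq1ot1 within the tolerance.

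Phlda2, a small pleckstrin homology domain protein known as a brake on placental growth, had 136 reads in all. Its normalized counts in libraries A to F were 22.1, 27.6, 24.3, 19.2, 24.6 and 16.5. The 6 libraries lay close together, and the counting intervals of the highest (B) and the lowest (F) overlapped. The highest library held 20.5% of the sum of its normalized counts, where the median of 632 genes of like mean, within 1.5 times, was 26.9%, and 4.27% of them were more even. Its relatives Phlda1 and Phlda3 were much higher, at 1630 and 10030 normalized counts, 28.3 and 236.3 times the level of Phlda2 per kb.

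Tspan32, a tetraspanin known from blood cells, had 95 reads and a mean of 16.0 normalized counts. Libraries A to F gave 17.7, 5.71, 13.6, 7.09, 27.8 and 24.2. E and F were highest and B and D lowest, and the counting intervals of E and B did not overlap. E held 28.9% of the sum, near the median of 27.4% among 974 genes of like mean and at percentile 60.4 of them. Its 4 transcripts gave means from 14.4 to 16.0, and E was the highest and B the lowest library in each. The antisense RNA Tspan32os shares 4.35% of its exon bases. Cd81 had 2017 times the level of Tspan32 per kb. The blood cell markers in the table were low with the exception of Cd68 at 257.2, since Ptprc and Spi1 had means of 3.09 and 3.03 and Adgre1 of 0.178, and the part of such cells in the Tspan32 level was not tested.

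Kcnq1 had 46 reads. Its normalized counts in libraries A to F were 7.07, 10.5, 1.95, 13.2, 6.41 and 6.60, with D highest and C lowest. The counting intervals of D and C overlapped by a small margin, from 7.01 to 7.03. The highest library held 28.8% of the sum, near the median of 31.0% among 1002 genes of like mean.

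Slc22a18, a membrane transporter of the organic cation family, had 37 reads and a mean of 6.07 normalized counts. Libraries A to F gave 7.07, 6.66, 1.95, 14.2, 1.07 and 5.50. D was again the highest library, and its counting interval did not overlap that of E, the lowest. D held 38.9% of the sum, at percentile 76.5 of 1014 genes of like mean. Slc22a18 begins close to Cdkn1c on the opposite strand, and the mean of Cdkn1c was far above it.

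Ascl2, a basic helix-loop-helix factor that trophoblast progenitors need, had the lowest mean of the 10, with 26 reads and 4.37 normalized counts. Libraries A, B and F had 6.19, 5.71 and 14.3 normalized counts, from 7, 6 and 13 reads. Libraries C, D and E had 0 reads, which allows up to 3 reads in each. F held 54.6% of the sum, above 96.9% of 635 genes of like mean, and 2.52% of those genes had 3 or more libraries at 0. Without F the mean of Ascl2 was 2.38 normalized counts. The trophoblast markers Tpbpa, Elf5, Gcm1 and Prl3d1 had means of 0, 0.930, 1.15 and 7.44.

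**Figure D4:**
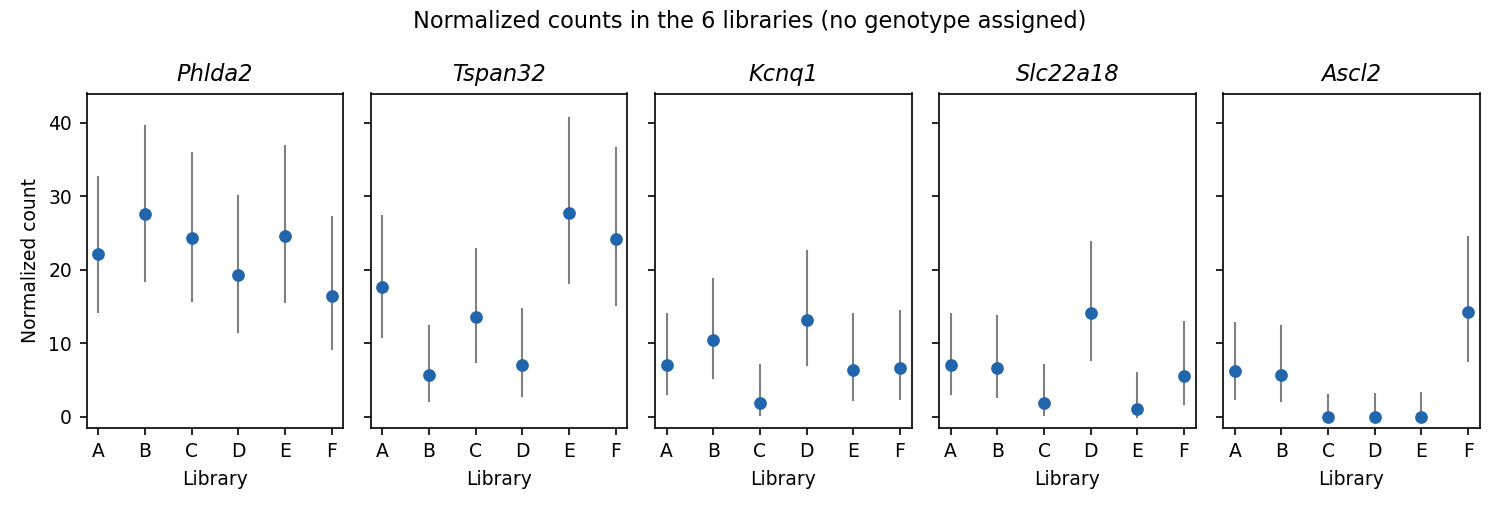
Normalized counts (y axis) of Phlda2, Tspan32, Kcnq1, Slc22a18 and Ascl2 in the 6 libraries A to F (x axis, in order of size factor, with no genotype assigned). Points are single libraries and bars their 95% counting interval, or up to 3 reads for a library with 0. Phlda2 stays between 16.5 and 27.6, and Ascl2 is at 0 in C, D and E and at 14.3 in F.

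A fixed list of 11 other genes of the region set the 10 beside their surroundings. Of these, 10 had reads and 9 had a mean of at least 10. H19, the maternally expressed noncoding RNA of the adjacent imprinted domain, had 14954 normalized counts and stood 5.66 times above Cdkn1c per kb. Igf2, its paternally expressed partner and a fetal growth factor, had 679.0, while Ins2 had 0 reads and Th, the dopamine synthesis enzyme, had 1 read in library A. Within the domain, Cars, a tRNA synthetase, had 5748 and Tssc4 had 2766 normalized counts, both in the range of the high set. Tnfrsf23 and Tnfrsf22, decoy receptors for a death ligand, had 794.0 and 331.7, and Trpm5, a taste channel next to Kcnq1, had 29.7. On the telomeric side of Osbpl5, Nadsyn1 and Dhcr7, enzymes of NAD and cholesterol synthesis, had 343.2 and 564.0.

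From H19 to Osbpl5, chr7:142575530-143757008, the table held 27 genes. Of these 2 had no reads, 7 had a mean below 10, 9 a mean from 10 to 1000 and 9 a mean of at least 1000. Of the markers of the labelled cell type, fibroblasts, 8 of 8 had a mean of at least 10 and 7 of 8 of at least 1000. A mean of 10 was also reached by 3 of 3 mesothelial and 3 of 4 epithelial markers, so it does not set fibroblasts apart. A mean of 1000 was reached by 1 of 4 epithelial, 1 of 4 endothelial and 0 of 3 mesothelial markers.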

How the data were processed

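Total RNA was measured in 3 WT and 3 Anp32e null MEF libraries. Per the labels and the study's methods, the authors aligned reads to mm10 with STAR, counted them with featureCounts of Subread and ran DESeq2. The methods state default settings for the last steps and name no strand option. The default of featureCounts does not use strand, but whether this default was kept cannot be told from the means. The deposited table holds, for 42361 RefSeq transcripts, a signal: the authors' mean of counts divided by size factors over the 6 libraries. Its 5 further columns hold the authors' own comparison of the genotypes (log2 fold change, its error, statistic and p-values). They were not used, so no test between genotypes was made.

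The 10 genes and all gene lists were chosen with earlier results of these data known. RefSeq identifiers were matched to symbols (42198 matched, 163 did not), and the highest mean represented a gene. The named genes were the 10, 11 of the region, 8 relatives, Anp32e and cell type markers, and 1 relative is not reported here. Spliced lengths came from GENCODE on GRCm38, the assembly of mm10.

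The 6 lowest means above 0 gave the value of 1 read in each library, and all sets of 6 whole reads that gave a low mean within its printed digits (relative error 1e-14) were searched. All of 1273 distinct means under 2 had exactly 1 set. On simulated reads, 40 draws each, the search returned the true reads in 100% of draws for Ascl2, Slc22a18, Kcnq1 and Tspan32 and in 97.5% for Phlda2. Library totals are unknown, since transcripts of a gene share reads. Intervals are 95% exact Poisson intervals, and a count of 0 allows 3 reads. Python 3.11.15, numpy 2.4.6, pandas 2.3.3, scipy 1.17.1 and matplotlib 3.10.9 were used. A comparison of protein sequences was planned and not run. The alternatives tried are in the closing section.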

Additional observations from a re-analysis of the deposited data

How the results depend on the processing

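Of 81 alternative values, 70 stayed within their counting interval or within 1.5 times the count. Part of these could not move. Kcnq1, Kcnq1ot1, Phlda2, Cd81 and Ascl2 have 1 transcript each and the transcripts of Slc22a18 have the same mean, so their alternatives by transcript equal the value reported. The numbers of the 10 genes with a mean of at least 10 (7), above the median gene (4) and with 1 set of reads (5) were the same under the alternatives run for each. Without division by length the ratio of Cd81 to Cdkn1c was 12.1 in place of 14.9. In the 100 bases before the start alone, with the most distal window for Osbpl5, TATAAA was found in 1 of the 7 windows in place of 2, GGGCGG in 2 and CCAAT in 3. Among genes with a mean of at least 10 all 7 percentiles of the genes that pass were lower, for Cdkn1c 67.3 in place of 75.9, for Kcnq1ot1 30.8 in place of 48.9, for Phlda2 6.85 in place of 31.2 and for Tspan32 3.89 in place of 29.0, since fewer low genes are ranked. The RefSeq length of Kcnq1ot1, the ranking per kb and the Tspan32 and Slc22a18 transcripts with the fewest reads and the means without 1 library were added after seeing the data. With its RefSeq length Kcnq1ot1 stood at 3.75 per kb, outside the counting interval of 3.21 to 3.52 that its GENCODE length gave. No paired analysis was possible because the table carries no column for a single library and the recovered reads carry no replicate number. For the 5 genes with recovered reads, leaving out each library in turn gave means from 2.38 (without F) to 5.24 for Ascl2, 4.45 to 7.07 for Slc22a18, 6.50 to 8.74 for Kcnq1, 13.7 to 18.1 for Tspan32 and 21.4 to 23.6 for Phlda2. For the other 5 genes no library could be left out. The comparison of proteins was not run. Depth limits the 3 genes with means below 10, whose counting intervals are the widest relative to their means.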

Other observations

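Trpm5, the neighbour of Kcnq1 on the opposite strand, could also be resolved into libraries. It had 177 reads, and its normalized counts in libraries A to F were 20.3, 22.8, 30.2, 38.5, 31.0 and 35.2. D was the highest library for Trpm5, Kcnq1 and Slc22a18, while it was the second lowest for Tspan32 and Phlda2 and at 0 for Ascl2. Of 2260 genes with means from 4 to 25, 17.7% had their highest value in D, and the 6 libraries ranged from 13.7% to 18.7%. These libraries carry no genotype, and whether the pattern goes with WT or Anp32e null was not tested.

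In the 4 transcripts of Tspan32 the reads of libraries C and D were 14 and 7 throughout, while those of A ran from 14 to 20 and those of B from 2 to 6. The transcript with the fewest reads had 85 of the 95 reads of the highest. Tssc4, the neighbour of Cd81, had transcripts with means from 2234 to 2766, a gap of 19.2%, and Igf2 had transcripts from 332.9 to 679.0, a gap of 51.0%, so for these genes the choice of transcript bears on the value more than for any of the 10 genes, where the widest gap was 10.0% for Tspan32.

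Other markers were present beside those of fibroblasts. The mesothelial markers Msln, Upk3b and Wt1 had means of 381.1, 604.9 and 300.3. Of the endothelial markers Kdr had 2958 while Tek, Pecam1 and Cdh5 had 34.4, 4.47 and 3.54. The epithelial markers Krt18, Cdh1, Krt8 and Epcam had 1106, 67.1, 26.7 and 5.12. The skeletal muscle markers Des, Actc1, Myog and Myod1 had 59.6, 5.05, 0.590 and 0. Their part in the levels of the domain was not tested.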
